A study of Mus musculus with 4 samples.

Results

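Calretinin-high and calretinin-low type IC neurons are the extremes of calretinin message within 1 annotated subtype of mouse spiral ganglion neuron. They were chosen by the share of Calb2 among all unique molecular identifiers (UMIs, molecules counted once) of a cell. Within the authors' type IC label, cells of at least 10000 UMIs were ranked in each mouse, and the highest 25% and the lowest 25% were kept. This gave 370 calretinin-high and 370 calretinin-low cells, 740 of the 6713 annotated cells and of the 2104 type IC cells. Another 748 type IC cells lay between the sides, and 616 type IC cells had under 10000 UMIs.

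The cells came from 4 wild-type CBA/CaJ males of 9 weeks, and the series set out to describe the neuron types of the normal adult cochlea. Both cochleae of a mouse were pooled, the modiolus was digested to single cells, and each mouse gave 1 droplet library with 3′ counting. There was no treatment, and both sides of the split come from the same 4 libraries, so every comparison is paired by mouse. Mice 1 to 4 contributed 77, 123, 96 and 74 cells to each side. The deposited labels were used as they stand; they were assigned to the same cells whose UMIs are compared here, and the sources used here do not give the method.

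Type I neurons carry sound information from inner hair cells to the brainstem, and each inner hair cell is contacted by several of them. They differ in spontaneous rate and threshold, and the molecular subtypes IA, IB and IC are commonly set along that axis, with calretinin high in type IA, calbindin marking type IB, and Lypd1 and Pou4f1 marking type IC. Calretinin, encoded by Calb2, is a cytosolic protein with EF-hand domains that binds and buffers calcium. Type IC is the subtype in which its message is lowest, and the split asks which other genes vary with it there.

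Calb2 (GRCm38, chromosome 8, 110137502 to 110168210, minus strand) chose the cells, so its levels are a description with no test. It stood at 1318, 1200, 1425 and 1016 counts per 1000000 UMIs (CPM) in the calretinin-high cells of mice 1 to 4, against 437.5, 311, 462 and 279 CPM in the calretinin-low cells. The ratio of the means was 3.33, and 3.01 to 3.86 in single mice. A calretinin-high cell carried a median of 24, 16, 22 and 13 Calb2 UMIs in mice 1 to 4, against 9, 5, 9 and 4 in a calretinin-low cell. No calretinin-low cell lacked Calb2 UMIs altogether. Calb2 is abundant in type IA cells of the same libraries, free RNA can also give UMIs, and its part in these UMIs was not tested. The share of the last cell inside the calretinin-high side was 8.71, 7.71, 9.68 and 6.88 Calb2 UMIs per 10000 in mice 1 to 4, and that of the first cell outside it was 8.68, 7.7, 9.68 and 6.87. At the other boundary the last cell inside the calretinin-low side had 5.45, 4.06, 5.88 and 3.8, and the first outside it 5.53, 4.07, 5.88 and 3.81. The boundaries fall inside a continuous range, and their heights differ between mice.

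The gap in Calb2 was smaller in UMIs that did not take part in the choice. When each UMI was assigned at random to 1 of 2 parts, cells were chosen on one part and Calb2 was measured on the other, its mean was 1036 ± 209 CPM on the high side and 581 ± 117 CPM on the low side (SD, n = 4). That is a ratio of 1.78, and 1.60 to 2.05 in single mice. The summed calretinin-high cells stood below the other subtypes as wholes. Over cells of the same depth minimum, Calb2 averaged 713 ± 118 CPM in type IC, 2483 ± 299 CPM in type IB and 10420 ± 749 CPM in type IA (SD, n = 4), and the highest calretinin-high sum, 1425 CPM in mouse 3, was under the lowest type IB sum of 2227 CPM. Single cells reached higher shares: the highest calretinin-high cell held 26.1, 33.7, 44.7 and 19.7 Calb2 UMIs per 10000 in mice 1 to 4. The calretinin-high type IC sums also overlap those of the calretinin-low side of type IB, taken by the same rule, at 1431, 1080, 1339 and 956 CPM. Whether Calb2 took part in the labels is not known.

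**Figure D1:**
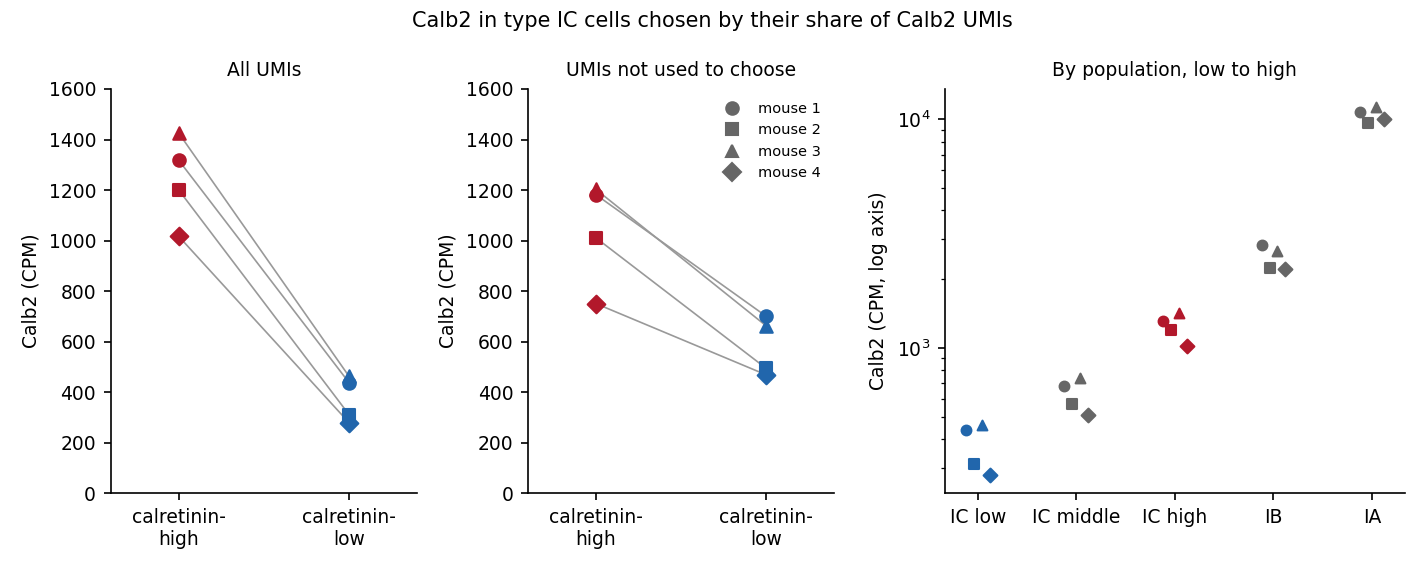
Calb2 in CPM, 1 symbol per mouse with lines joining the sides of a mouse. The left panel uses all UMIs (1016 to 1425 CPM in calretinin-high cells, 279 to 462 in calretinin-low cells). The middle panel uses sides chosen anew on one part of the UMIs and measured on the other (means 1036 and 581 CPM). The right panel, on a log axis, sets the type IC sums below the sums of types IB and IA.

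Outside Calb2, the sides differed at few genes. Summed counts per mouse and side were compared with edgeR's quasi-likelihood test, blocked by mouse, and 35 of 9979 genes tested passed a Benjamini-Hochberg adjusted p of 0.05 (0.351%). Of these 15 were higher in calretinin-high cells (0.15% of genes tested) and 20 were lower (0.2%), and 29 had the same direction in 4 of 4 mice. Calb1 and Pcdh19 were the genes past a 2-fold difference. The per-mouse levels of the sides did not overlap at 17 of the 35 genes, 7 higher and 10 lower, against 259 of all 9979 genes (2.6%). Over all genes tested the median log2 difference was -0.001. In 30 of the 35 the mean of the cells between the sides also lay between the sides. These genes were picked for a gap between the sides, and the share over all genes was not counted, so nothing is read from this. The count rests on the test used: with DESeq2, Lypd1, Sphkap, Rasgrp2 and Lgals1 passed, 4 genes in all, and the count was 12 without mouse 1 and 21 without mouse 3.

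**Figure D2:**
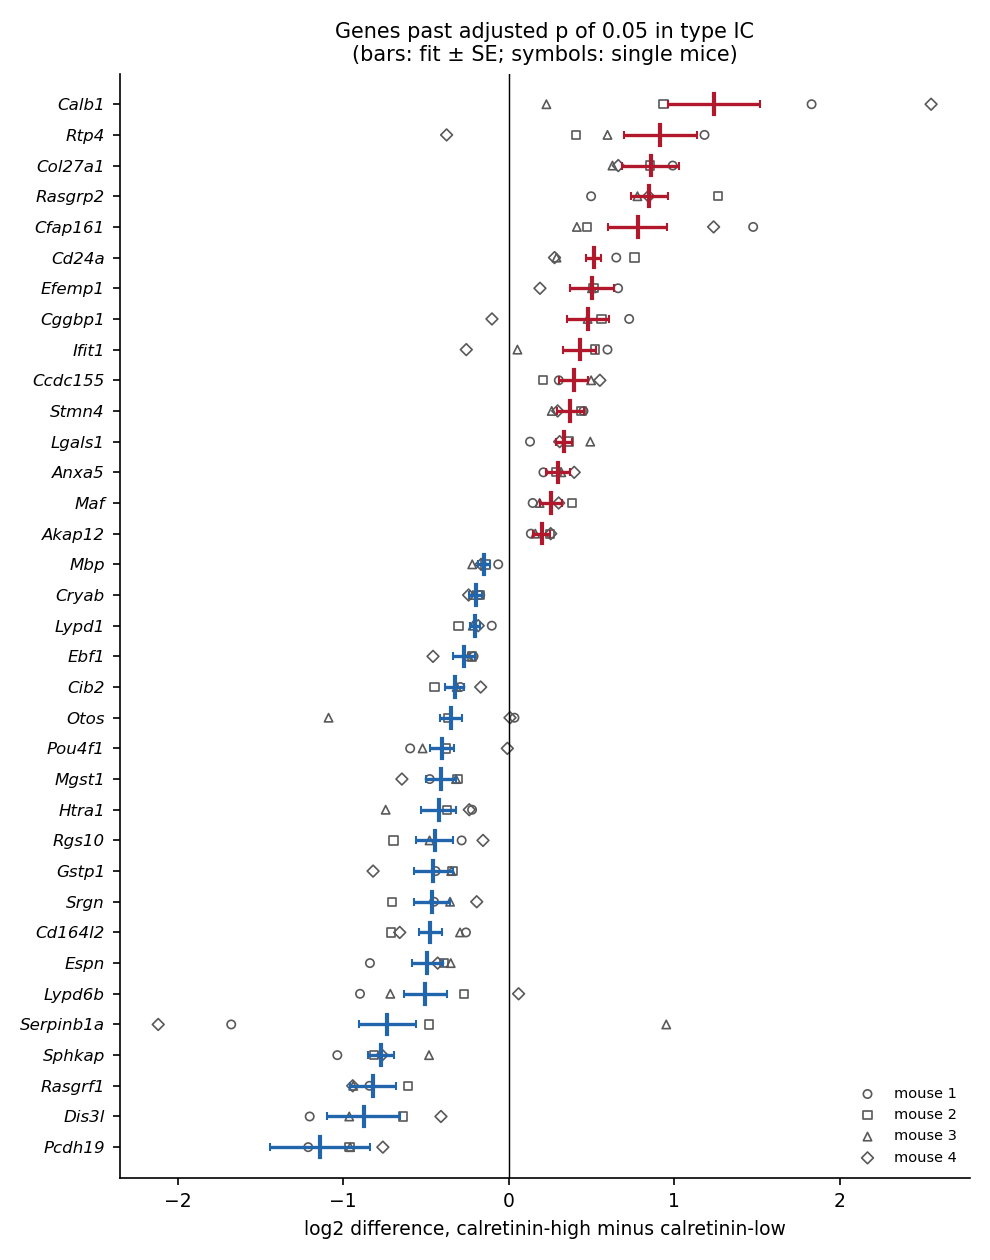
The 35 genes past the threshold, ordered by log2 difference (calretinin-high minus calretinin-low). Coloured bars give the edgeR estimate ± SE (red higher, blue lower) and open symbols the 4 mice. Estimates run between 1.24 for Calb1 and -1.14 for Pcdh19, and Otos, Rtp4, Ifit1, Cggbp1, Lypd6b and Serpinb1a have mice on both sides of 0.

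Cd24a gave the smallest adjusted p of the higher genes. It encodes a small glycosylated surface protein held by a lipid anchor (chromosome 10, 43578284 to 43584265, plus strand). Its level was 696, 631, 593 and 502 CPM in the calretinin-high cells of mice 1 to 4, against 445, 367, 485 and 413 CPM in the calretinin-low cells. All 4 high sums lay above all 4 low sums. The log2 difference was 0.51 ± 0.05 (SE, adjusted p = 1.94e-24 by edgeR, higher in 4 of 4 mice). Cells between the sides averaged 456 ± 25.7 CPM, and the level was higher still in type IB (1183 ± 75.6 CPM) and type IA (1521 ± 29.1 CPM; SD, n = 4). The log2 differences in single mice were 0.65, 0.76, 0.29 and 0.28. Cd24a did not pass with DESeq2 (0.50 ± 0.13, adjusted p = 0.143). It passed by edgeR when the cells were chosen on one part of the UMIs and measured on the other (0.46, adjusted p = 2.25e-09). It also passed in the type IC cells under 10000 UMIs, which are other cells of the same 4 mice and libraries (0.76, adjusted p = 0.000708).

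Rasgrp2, which encodes an exchange factor that activates the small GTPase Rap1 in response to calcium and diacylglycerol, rose as well (chromosome 19, 6399340 to 6415216, plus strand). It had 73.9, 74.3, 102.5 and 73.1 CPM in calretinin-high cells, against 52.3, 29.8, 59.2 and 40.1 CPM in calretinin-low cells, with no overlap. The log2 difference was 0.85 ± 0.11 (adjusted p = 3.03e-11, 4 of 4 mice). Lgals1, which encodes galectin-1, a secreted lectin that binds galactose-containing sugars, had 422, 641, 512 and 504 CPM in calretinin-high cells, against 388, 492, 363 and 407 CPM in calretinin-low cells. Its groups overlap, with mouse 2 high on both sides, and each mouse is higher on the calretinin-high side (0.33 ± 0.05, adjusted p = 1.04e-08). These 3 genes also passed with each mouse left out in turn, with adjusted p at most 0.00784.

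Calb1 rose by the largest estimate and from few molecules. It encodes calbindin, an EF-hand calcium buffer and the type IB marker (chromosome 4, 15881264 to 15908064, plus strand). It had 14.7, 14.3, 12.2 and 17.1 CPM in calretinin-high cells, against 3.23, 6.8, 10.3 and 1.87 CPM in calretinin-low cells, from 90 UMIs against 38 over all mice. The sides do not overlap, and mouse 3 shows the smallest gap. The log2 difference was 1.24 ± 0.28 (adjusted p = 0.00506), and the call is lost without mouse 1 (adjusted p = 0.228) or mouse 4 (0.212). With each cell thinned to 10000 UMIs, 12% ± 1.41 of calretinin-high cells held a Calb1 UMI, against 5.15% ± 3.65 of calretinin-low cells. The share was 39.3% ± 6.58 in type IB and 4.71% ± 1.61 in type IA (SD, n = 4), so the calretinin-low share is at the level of the subtype that calbindin does not mark. Both sides of type IC stayed far under the type IB level of 66.9 ± 5.94 CPM. Calb1 could not be fitted in UMIs that did not choose the cells or in cells under 10000 UMIs. Nor could it be fitted without the cells highest in type IA or IB markers.

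Among the other higher genes are 3 tied to the cell surface or matrix. Col27a1, which encodes a fibrillar collagen chain, averaged 29.4 ± 8.78 CPM in calretinin-high cells and 16.2 ± 3.22 CPM in calretinin-low cells (0.86 ± 0.17, adjusted p = 0.000579), and its call is lost without mouse 1 (0.101). Efemp1, which encodes the matrix glycoprotein fibulin-3, averaged 46.2 ± 4.31 and 33.1 ± 3.72 CPM on the high and low sides (0.50 ± 0.13, adjusted p = 0.0444). Anxa5, which encodes annexin A5, a calcium-dependent phospholipid-binding protein, averaged 171 ± 8.84 CPM in calretinin-high cells and 138 ± 8.48 CPM in calretinin-low cells (0.30 ± 0.07, adjusted p = 0.0169). The Efemp1 call is lost without mouse 1, 2 or 3 (adjusted p 0.254 to 0.392), and the Anxa5 call without any 1 mouse (0.0728 to 0.285).

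A second set of higher genes acts in the cytoskeleton, in signalling scaffolds or in the nucleus. Stmn4, a member of the stathmin family that destabilises microtubules, averaged 124 ± 8.14 CPM in calretinin-high cells and 96.2 ± 3.97 CPM in calretinin-low cells (0.37 ± 0.08, adjusted p = 0.00506). Akap12, an anchoring protein for protein kinase A, averaged 453 ± 53.8 CPM and 394 ± 46.5 CPM on the high and low sides (0.20 ± 0.05, adjusted p = 0.0224). Cfap161, a cilium and flagellum-associated gene, averaged 26.8 ± 4.74 CPM in calretinin-high cells and 14.9 ± 7.75 CPM in calretinin-low cells (0.78 ± 0.18, adjusted p = 0.00844). Ccdc155, known for linking telomeres to dynein during meiosis in germ cells, averaged 115 ± 24.2 CPM in calretinin-high cells and 86.4 ± 10.1 CPM in calretinin-low cells (0.39 ± 0.09, adjusted p = 0.00506). Maf, which encodes a basic leucine zipper transcription factor, averaged 203 ± 10.2 CPM in calretinin-high cells and 170 ± 15.4 CPM in calretinin-low cells (0.25 ± 0.07, adjusted p = 0.0462). Each was higher in 4 of 4 mice. The calls of Maf (adjusted p 0.101 to 0.467) and Akap12 (0.0953 to 0.255) are lost without any 1 mouse. Stmn4 loses its call without mouse 1 (0.147) or 2 (0.122), Cfap161 without mouse 1 (0.386) or 4 (0.11), and Ccdc155 without mouse 3 (0.363) or 4 (0.0866).

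The remaining higher genes did not move together in all mice. Rtp4 and Ifit1 are genes induced by interferon. Rtp4 had 59.9, 10.2, 5.83 and 4.75 CPM in calretinin-high cells, against 25.8, 7.33, 3.42 and 6.53 CPM in calretinin-low cells. Ifit1 had 238, 52.3, 35.5 and 34.2 CPM in calretinin-high cells, against 158, 35.6, 34.2 and 41.0 CPM in calretinin-low cells. Mouse 1 is high at both genes on both sides, and mouse 4 has the opposite direction. Their estimates were 0.92 ± 0.22 (adjusted p = 0.012) and 0.43 ± 0.10 (adjusted p = 0.0114), and without mouse 1 the adjusted p was 0.956 for Rtp4 and 0.917 for Ifit1, whose call is also lost without mouse 2 (0.0526). Cggbp1, which encodes a protein that binds CGG repeats, averaged 50.5 ± 6.83 CPM in calretinin-high cells and 37.4 ± 5.03 CPM in calretinin-low cells (0.48 ± 0.13, adjusted p = 0.0462, 3 of 4 mice). Its call is lost without mouse 1, 2 or 3 (0.337 to 0.537).

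Lower in calretinin-high cells were 3 of the 7 type IC markers that could be tested, Sphkap, Lypd1 and Pou4f1. Sphkap, which encodes an anchoring protein for protein kinase A (chromosome 1, 83254139 to 83408200, minus strand), had 70.8, 94.3, 98.5 and 118.7 CPM in calretinin-high cells, against 147, 164, 138 and 202 CPM in calretinin-low cells. All high sums lie under all low sums. The log2 difference was -0.77 ± 0.08 (adjusted p = 2.65e-18, 4 of 4 mice). After thinning, 48.0% ± 5.58 of calretinin-high cells held a Sphkap UMI, against 72.1% ± 4.31 of calretinin-low cells. In type IB, where the level was 16.6 ± 3.6 CPM, the share was 13.3% ± 2.7, so both sides of type IC stand above it.

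Lypd1, the leading type IC marker, encodes a lipid-anchored protein of the Ly6 family that binds nicotinic acetylcholine receptors (chromosome 1, 125867622 to 125913101, minus strand). It had 3100, 2565, 2777 and 2474 CPM in calretinin-high cells, against 3346, 3125, 3226 and 2808 CPM in calretinin-low cells. The ranges overlap, but each mouse is lower on the calretinin-high side. The difference was small, at -0.20 ± 0.03 on the log2 scale (adjusted p = 2.97e-07). Against levels of 207 ± 37.2 CPM in type IB and 111 ± 23.7 CPM in type IA, both sides carried the marker: 99.3% ± 0.867 of thinned calretinin-high cells held a Lypd1 UMI.

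Pou4f1, which encodes Brn3a, a POU-domain transcription factor of sensory neurons (chromosome 14, 104461676 to 104467999, minus strand), had 126, 139, 119 and 164 CPM in calretinin-high cells, against 192, 178, 171 and 165 CPM in calretinin-low cells. Mouse 4 shows almost no gap. The log2 difference was -0.40 ± 0.07 (adjusted p = 2.97e-05), and without mouse 1 the adjusted p is 0.0704. The other tested type IC markers did not pass. Kcnc2, a potassium channel subunit, had an estimate of -0.93 ± 0.31 (adjusted p = 0.251), Chst9, a sulfotransferase, -0.60 ± 0.19 (0.241), Grm8, a metabotropic glutamate receptor, -0.36 ± 0.13 (0.405) and Runx1, a transcription factor, 0.15 ± 0.10 (0.805). Of the 7 members 6 had negative estimates, with a list median of -0.40 against -0.001 over all genes tested.

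**Figure D3:**
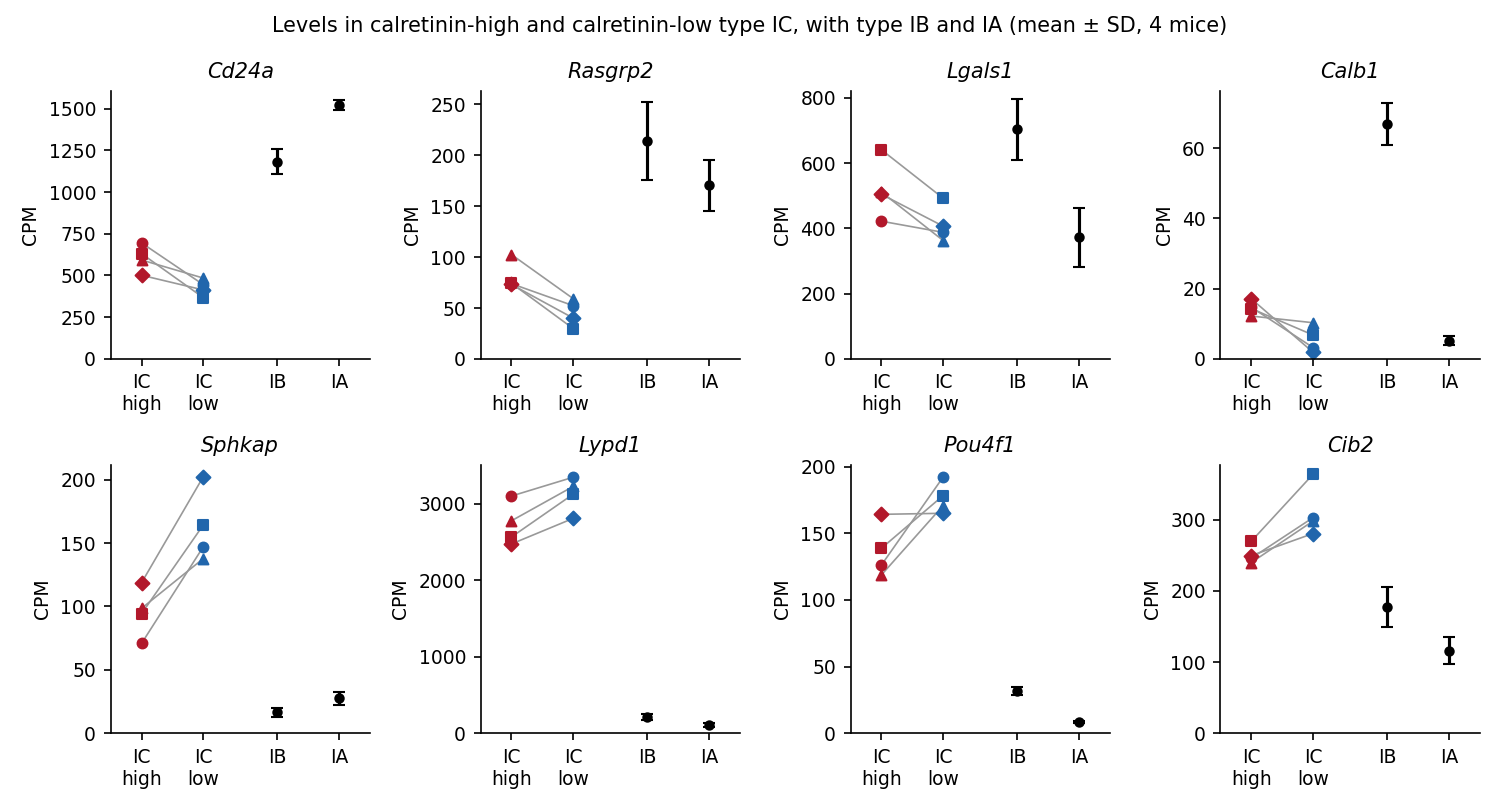
Levels in CPM of 4 higher genes (top row) and 4 lower genes (bottom row). Coloured symbols are the 4 mice, calretinin-high left of calretinin-low with lines joining a mouse, and black points give the mean ± SD of types IB and IA. Cd24a and Rasgrp2 are higher in IB and IA than on either side of IC, and Sphkap, Lypd1, Pou4f1 and Cib2 are lower there.

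The promoters of Rasgrp2, Sphkap and Pou4f1 are shown because these genes moved in opposite directions between the same cells, and because the called transcription factors have known short sites to look for. RefSeq windows on GRCm38.p6, which run 250 bases before to 50 bases after a start, were matched by symbol to 23 of the 36 genes made up of Calb2 and the 35 called ones (32 windows). Capitals mark a match on either strand to CCCNNGGG (EBF factors), TAATTAAT (POU4 factors) or TGCTGAC (MAF factors), and no capitals overlap 2 motifs. The first Rasgrp2 window spans chr19:6399625-6399924 and the second chr19:6401455-6401754, both on the plus strand. The Sphkap window spans chr1:83408151-83408450 and the Pou4f1 window chr14:104467950-104468249, both on the minus strand.
Rasgrp2 first start: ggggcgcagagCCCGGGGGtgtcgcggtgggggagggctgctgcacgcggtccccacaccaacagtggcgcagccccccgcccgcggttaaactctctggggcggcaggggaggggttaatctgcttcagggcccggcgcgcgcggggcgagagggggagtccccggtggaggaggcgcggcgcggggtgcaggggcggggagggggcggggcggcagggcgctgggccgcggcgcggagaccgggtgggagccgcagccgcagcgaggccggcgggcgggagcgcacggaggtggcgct
Rasgrp2 second start: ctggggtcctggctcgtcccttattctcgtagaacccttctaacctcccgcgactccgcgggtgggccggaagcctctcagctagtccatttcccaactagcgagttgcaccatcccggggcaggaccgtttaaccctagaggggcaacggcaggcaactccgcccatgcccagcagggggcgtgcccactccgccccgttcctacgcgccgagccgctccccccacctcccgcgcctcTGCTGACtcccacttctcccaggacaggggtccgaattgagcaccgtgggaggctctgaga
Sphkap: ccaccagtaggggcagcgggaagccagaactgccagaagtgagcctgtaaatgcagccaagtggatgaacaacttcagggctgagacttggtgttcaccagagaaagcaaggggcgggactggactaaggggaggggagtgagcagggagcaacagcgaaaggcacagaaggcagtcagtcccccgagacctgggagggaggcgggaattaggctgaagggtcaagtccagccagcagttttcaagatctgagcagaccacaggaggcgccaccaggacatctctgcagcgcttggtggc
Pou4f1: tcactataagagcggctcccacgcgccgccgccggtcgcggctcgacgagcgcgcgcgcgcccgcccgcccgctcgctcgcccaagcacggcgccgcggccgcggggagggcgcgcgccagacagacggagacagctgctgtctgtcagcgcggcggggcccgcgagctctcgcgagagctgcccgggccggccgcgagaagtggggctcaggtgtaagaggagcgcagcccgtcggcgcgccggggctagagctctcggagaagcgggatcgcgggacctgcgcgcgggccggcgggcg
The EBF letters occur in 1 Rasgrp2 window and the MAF letters in the other, and none of the 3 motifs in the Sphkap or Pou4f1 window. Over all 32851 windows of this length the EBF letters occur in 13.7%, the MAF letters in 4.67% and the POU4 letters in 0.852%. Over the 32 windows of called genes they occur in 7, 3 and 0. A match is a description of letters and was not tested as a site.

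Cib2 and Ebf1 also fell. Cib2 encodes a small calcium-binding EF-hand protein that hair cells need for mechanotransduction. It had 246, 270, 240 and 250 CPM in calretinin-high cells, against 303, 364, 298 and 281 CPM in calretinin-low cells, with no overlap (-0.33 ± 0.06, adjusted p = 1.15e-05, 4 of 4 mice). Ebf1 encodes a transcription factor of the early B-cell factor family. It had 177, 182, 158 and 169 CPM in calretinin-high cells, against 206, 210, 187 and 232 CPM in calretinin-low cells, again with no overlap (-0.27 ± 0.07, adjusted p = 0.0184). The Ebf1 call is lost without any 1 mouse (adjusted p 0.0526 to 0.315), and Cib2 keeps its call without each (at most 0.0179).

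Several lower genes act at membranes, in signalling or on the actin skeleton. Rasgrf1, an exchange factor for Ras that calcium and calmodulin activate, averaged 26.4 ± 8.32 CPM in calretinin-high cells and 47.3 ± 11.6 CPM in calretinin-low cells (-0.82 ± 0.14, adjusted p = 5.53e-06, 4 of 4 mice). Mouse 3 was lowest on both sides, with 15.1 and 30.2 CPM. Cd164l2, a membrane protein related to the sialomucin CD164, averaged 146 ± 26.5 CPM in calretinin-high cells and 204 ± 31.5 CPM in calretinin-low cells (-0.47 ± 0.07, adjusted p = 1.58e-08), and was far lower in type IB (23.0 ± 5.06 CPM) and type IA (20.4 ± 4.94 CPM). Espn, which encodes the actin-bundling protein espin, averaged 74.5 ± 13.6 CPM in calretinin-high cells and 105 ± 8.55 CPM in calretinin-low cells (-0.49 ± 0.09, adjusted p = 0.000103), and without mouse 1 the adjusted p is 0.0953. Rgs10, which speeds GTP hydrolysis by G protein alpha subunits, averaged 51.1 ± 4.4 CPM in calretinin-high cells and 67.9 ± 5.45 CPM in calretinin-low cells (-0.45 ± 0.11, adjusted p = 0.0211), with a call lost without mouse 1, 2 or 3 (0.0704 to 0.507).

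Pcdh19, a protocadherin of cell adhesion, had the lowest estimate of all genes tested, at -1.14 ± 0.30 (adjusted p = 0.0477). It rests on 33 UMIs in calretinin-high cells and 73 in calretinin-low cells, at 5.1, 5.64, 4.08 and 6.65 CPM against 13.5, 12, 9.11 and 12.1 CPM in mice 1 to 4. The sides do not overlap, and the call is lost without any 1 mouse (0.115 to 0.373). Dis3l, which encodes a ribonuclease of the RNA exosome, averaged 10.5 ± 2.47 CPM in calretinin-high cells and 19.0 ± 1.54 CPM in calretinin-low cells (-0.88 ± 0.22, adjusted p = 0.0226), with a call lost without mouse 1, 2 or 3 (0.0844 to 0.345).

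Lower genes also included enzymes and secreted products. Mgst1 and Gstp1 encode glutathione transferases. Mgst1 averaged 75.5 ± 14.5 CPM in calretinin-high cells and 102 ± 12 CPM in calretinin-low cells (-0.41 ± 0.09, adjusted p = 0.00506), and Gstp1 averaged 43.7 ± 9.06 and 61.4 ± 10.1 CPM on the high and low sides (-0.46 ± 0.12, adjusted p = 0.0332). Gstp1 has a near-identical neighbour, Gstp2, so its counts may be split. Htra1, a secreted serine protease, averaged 57.1 ± 4.61 CPM in calretinin-high cells and 75.5 ± 9.28 CPM in calretinin-low cells (-0.42 ± 0.11, adjusted p = 0.0213). Srgn, the core protein of the proteoglycan serglycin, averaged 53.1 ± 9.74 CPM in calretinin-high cells and 71.8 ± 13.9 CPM in calretinin-low cells (-0.46 ± 0.11, adjusted p = 0.00844). Gstp1 loses its call without any 1 mouse (0.0743 to 0.359), Htra1 and Srgn without mouse 1, 2 or 3 (0.0561 to 0.696), and Mgst1 without mouse 1 (0.147) or 4 (0.0611).

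Cryab, a small heat shock chaperone, had 871, 965, 953 and 875 CPM in calretinin-high cells, against 987, 1077, 1105 and 1034 CPM in calretinin-low cells, with no overlap (-0.20 ± 0.04, adjusted p = 0.000167, 4 of 4 mice). Mbp, which encodes myelin basic protein, a product of Schwann cells, averaged 1090 ± 63.2 CPM in calretinin-high cells and 1206 ± 92.3 CPM in calretinin-low cells (-0.15 ± 0.04, adjusted p = 0.0224). Its call is lost without mouse 1 (0.0704), 3 (0.607) or 4 (0.284).

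The last 3 lower genes differed in direction between mice. Otos, which encodes otospiralin, a product of cochlear fibrocytes, had 145, 172, 89.1 and 246 CPM in calretinin-high cells, against 142, 219, 191 and 244 CPM in calretinin-low cells. The fit gave -0.35 ± 0.07 (adjusted p = 0.000337), and without mouse 3 the adjusted p was 0.828. In the type IC cells under 10000 UMIs it was higher instead, by 1.08 (adjusted p = 0.00211). Serpinb1a, a protease inhibitor, had 13.4, 25.1, 22.1 and 5.7 CPM in calretinin-high cells, against 45.8, 35.1, 10.8 and 28.9 CPM in calretinin-low cells (-0.73 ± 0.17, adjusted p = 0.00844), with the opposite direction in mouse 3 and a call lost without mouse 1 (0.882) or 4 (0.327). Lypd6b, another Ly6 family gene, averaged 34.2 ± 6.11 CPM in calretinin-high cells and 47.4 ± 8.33 CPM in calretinin-low cells (-0.50 ± 0.13, adjusted p = 0.0332, 3 of 4 mice) and loses its call without mouse 1 (0.639) or 3 (0.647). The fit shrank each gene's spread fully to the trend over all genes (infinite prior degrees of freedom), so a gene that moved in 1 mouse can pass.

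Levels of the called genes in the other subtypes were then set beside the split. Of the 15 higher genes 13 had a type IB mean above the calretinin-high side, and 7 a type IA mean above it, the same 7 in both. Of the 20 lower genes 13 had a type IB mean below the calretinin-high side, 15 a type IA mean below it, and 12 both. Calb1 shows that the 2 subtypes need not go together, with 66.9 CPM in type IB and 5.24 CPM in type IA. These levels come from the same libraries and from labels made on the same cells, so they are given as a description. The same counts over all genes tested were not made.

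Summed subtype markers were compared between the sides, since cells near a subtype boundary could lie on one of them. The 7 type IB markers summed to 42.7, 57.4, 39.0 and 41.8 CPM in calretinin-high cells, against 28.4, 28.3, 34.7 and 36.4 CPM in calretinin-low cells, higher in 4 of 4 mice (exact two-sided sign-flip permutation p = 0.13, the smallest that 4 mice allow). Calb1, at 14.6 and 5.54 CPM on the high and low sides, makes up most of the gap between the means, and Lrrc52, too low to be tested, stood at 5.01 and 1.34 CPM. The median estimate of the 3 tested members was -0.02, with Kcnd2 at -0.16 ± 0.31 and Lypd6 at -0.02 ± 0.28. The 8 type IC markers summed to 3448, 2948, 3128 and 2892 CPM in calretinin-high cells, against 3846, 3604, 3701 and 3346 CPM in calretinin-low cells, lower in 4 of 4 mice (exact permutation p = 0.13). The 10 type IA markers without Calb2 summed to 35.3 ± 3.22 CPM and 28.6 ± 4.64 CPM on the high and low sides (higher in 3 of 4 mice, exact permutation p = 0.25). When the cells highest in IA or IB markers were left out before the sides were taken, 299 cells remained on each side. Of the 34 called genes that could be fitted then, 34 kept their sign and 11 passed the threshold. Among these were Cd24a (0.54, adjusted p = 2.24e-12), Rasgrp2 (0.81, 1.69e-05), Lgals1 (0.27, 0.00362), Sphkap (-0.70, 3.08e-08) and Lypd1 (-0.17, 0.000785). Calb1, itself a marker used to leave cells out, could not be fitted. The sides were drawn from the same type IC cells that gave the calls, so kept signs do not test the part of boundary cells.

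The same split was made in the other subtypes to ask whether it differs in type IC. Within type IB the calretinin-high and calretinin-low sides held 279 cells each and Calb2 averaged 4105 ± 388 CPM on the high and 1201 ± 221 CPM on the low side. Within type IA they held 367 cells each, at 14691 ± 551 CPM on the high and 6140 ± 918 CPM on the low side. In a model of all 24 sums, the difference between the type IC and the type IB split passed for 1 of 10424 genes (0.00959%), Lypd1, with 637 genes at an unadjusted p under 0.05. The count was 27 with no depth minimum and 5 with no filter on low counts, with Lypd1 among them. The Lypd1 split was -0.20 ± 0.03 in type IC and -1.88 ± 0.07 in type IB, a difference of 1.67 ± 0.11 (adjusted p = 1.49e-24). Lypd1 averaged 2729 ± 278 CPM in calretinin-high and 3126 ± 231 CPM in calretinin-low type IC cells, and 106 ± 18.3 CPM in calretinin-high and 394 ± 54.6 CPM in calretinin-low type IB cells.

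**Figure D4:**
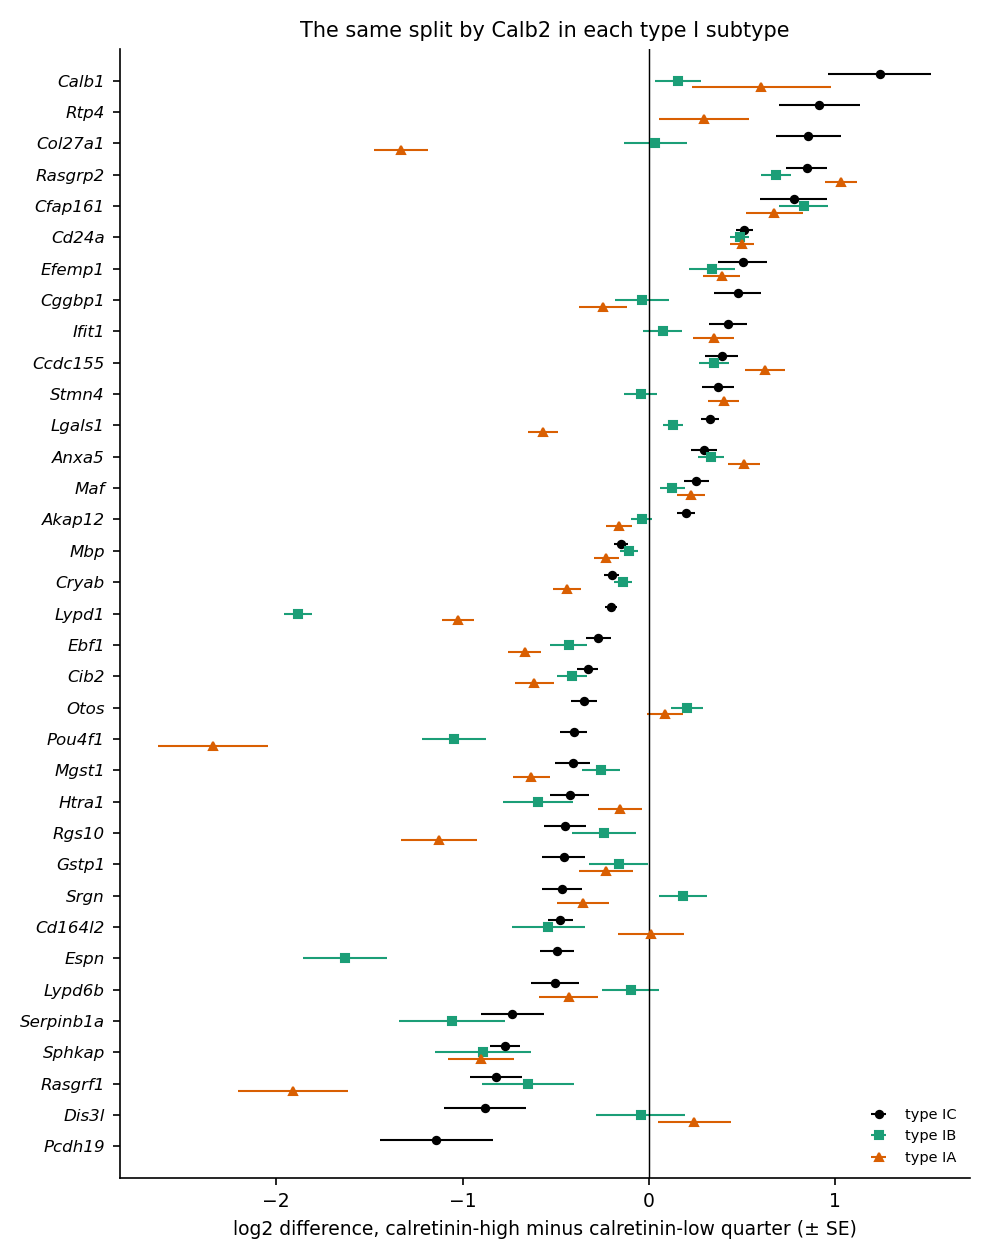
Log2 difference ± SE between calretinin-high and calretinin-low cells for the 35 genes called in type IC, with the same rule applied in type IC (black), type IB (green) and type IA (orange). A missing symbol is a gene under the count filter in that subtype. Cd24a lies at 0.51, 0.49 and 0.50 in types IC, IB and IA, while Lypd1 lies at -0.20, -1.88 and -1.03.

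For some called genes the estimates lay near each other in the 3 subtypes. Cd24a was at 0.51 in type IC, 0.49 ± 0.05 in type IB (adjusted p = 4.95e-12) and 0.50 ± 0.07 in type IA (4.3e-07). Rasgrp2 was at 0.85 in type IC, 0.68 ± 0.08 in type IB (8.95e-10) and 1.03 ± 0.09 in type IA (2.79e-11). Cfap161 was at 0.78 in type IC, 0.83 ± 0.13 in type IB (9.62e-06) and 0.67 ± 0.15 in type IA (0.00132). Sphkap was at -0.77 in type IC, -0.89 ± 0.26 in type IB (0.0607) and -0.90 ± 0.18 in type IA (0.000306). The type IC split minus the type IB split was 0.02 ± 0.08 for Cd24a, 0.16 ± 0.15 for Rasgrp2, -0.06 ± 0.26 for Cfap161 and 0.12 ± 0.28 for Sphkap, and minus the type IA split it was 0.003 ± 0.08, -0.19 ± 0.15, 0.10 ± 0.24 and 0.15 ± 0.19 for the same genes. None of these differences passed (adjusted p at least 0.497). Of the 35 called genes, 28 of 33 fitted in type IB and 25 of 32 fitted in type IA had their type IC sign. In those splits 11 and 22 of them passed the threshold. Over all genes tested, 120 of 9334 passed in the type IB split and 1920 of 9808 in the type IA split. The share of all genes with the same sign was not counted.

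Against type IA the split differed at 1020 of 10424 genes (9.79%), 399 with a higher and 621 with a lower type IC value. With total UMIs as the only scaling the numbers were 569 higher and 391 lower, with DESeq2 size factors in edgeR 380 and 671, and with the DESeq2 test 174 and 554. Without mouse 2 the total was 542. Of the 35 genes called in type IC, 11 were among them, and all 11 kept their sign under these scalings and tests. Of the 11, 5 were still called with the DESeq2 test, and likewise 5 with no replicate block, 5 without mouse 1 and 5 without mouse 2. Lgals1 was higher in calretinin-high type IC cells (0.33) and lower in calretinin-high type IA cells (-0.57 ± 0.08), a difference of 0.92 ± 0.10 (adjusted p = 1.12e-11). Col27a1 likewise rose in type IC (0.86) and fell in type IA (-1.33 ± 0.15), a difference of 2.21 ± 0.25 (6.92e-11). Pou4f1 fell in both, by 0.40 in type IC and 2.34 ± 0.29 in type IA, a difference of 1.92 ± 0.31 (1.73e-06). Its level in type IA was low, at 8.24 ± 0.62 CPM, against 137 and 177 CPM on the high and low sides of type IC. Rasgrf1, named next, was also low in type IA, at 7.25 ± 4.52 CPM (SD, n = 4). Log2 differences of these genes therefore start from unlike levels in the 2 subtypes. Rgs10 (0.69 ± 0.23), Rasgrf1 (1.08 ± 0.35), Ebf1 (0.40 ± 0.11) and Lypd1 (0.81 ± 0.12) also fell less in type IC than in type IA (adjusted p 7e-08 to 0.0402). Dis3l (-1.12 ± 0.29), Otos (-0.45 ± 0.15), Akap12 (0.36 ± 0.09) and Cggbp1 (0.71 ± 0.19) complete the 11 (adjusted p 0.00167 to 0.0343).

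The largest differences from type IA were mostly at genes not called within type IC. Of those named below, Shisa8, Zfp93 and N4bp3 were under the count filter of the type IC split and were not tested there. Shisa8 averaged 6.73 ± 1.48 CPM in calretinin-high and 2.74 ± 0.47 CPM in calretinin-low type IC cells. In type IA it averaged 2.76 ± 1.74 CPM on the high and 12.4 ± 5.51 CPM on the low side. Among named genes that passed with at least 20 UMIs and the same direction in 4 of 4 mice, the highest were Shisa8 (3.36 ± 0.55), Lypd6 (2.63 ± 0.56), Padi1 (2.54 ± 0.50), Cit (2.43 ± 0.35) and Hmcn1 (2.28 ± 0.59). Cit, which encodes citron kinase, averaged 36.8 ± 4.69 CPM in calretinin-high and 38.7 ± 12.3 CPM in calretinin-low type IC cells, and 3.04 ± 0.45 CPM in calretinin-high and 16.4 ± 10.1 CPM in calretinin-low type IA cells. The lowest were Zfp93 (-1.92 ± 0.56), N4bp3 (-1.56 ± 0.43), Dis3l (given above), Mettl1 (-1.10 ± 0.31) and Fcf1 (-0.99 ± 0.17), several of them at low counts.

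Channel, receptor and release genes were counted by list, beside 0.351% called over all genes tested, a share at which lists of this size hold few calls or none. None of 31 potassium channel genes, 10 calcium channel genes or 10 sodium, HCN and leak channel genes passed, with list medians of 0.03, 0.13 and 0.02 on the log2 scale against -0.001 over all genes. None of 8 glutamate receptor genes (median -0.05), 9 inhibitory, cholinergic and monoamine receptor genes (-0.09), 40 vesicle and release genes (0.01) or 7 neuropeptide and granin genes (-0.05) passed. Nothing is read from these counts. A missed threshold does not show that these genes are equal, and the potassium channel estimates alone ran between -0.95 and 0.47.

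Over all genes tested 0.351% were called, and the counts of these lists too are given as a description. Among 27 EF-hand calcium-binding genes, the family of calretinin itself, Calb1 rose and Cib2 fell, and 25 did not pass (median -0.01). None of 20 genes of calcium pumps, exchangers and stores passed (median 0.02). Of 60 transcription factor genes, Maf rose and Pou4f1 and Ebf1 fell (median -0.003). Pcdh19 was the 1 called gene of 41 cell adhesion genes (median -0.05) and Stmn4 the 1 of 31 axonal cytoskeleton genes (0.02). None of 38 axon guidance genes (0.04), 15 neurotrophic signalling genes (-0.03), 40 immediate early and dissociation genes (-0.02), 13 mitochondrially encoded genes (0.004) or 80 nuclear oxidative phosphorylation genes (0.01) passed. The 78 ribosomal protein genes tested had a median of -0.03 with 63 estimates below 0, and none passed.

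Both sides carried the markers of type I neurons. Their 8 genes summed to 14303 ± 470 CPM in calretinin-high cells and 13996 ± 513 CPM in calretinin-low cells. The sum was higher in 4 of 4 mice (exact permutation p = 0.13), and none of the 8 genes passed the test. Snap25, a vesicle fusion protein, averaged 4227 ± 118 CPM in calretinin-high cells and 4200 ± 216 CPM in calretinin-low cells, and Nefl, a neurofilament subunit, 1907 ± 94.6 and 1836 ± 71.7 CPM on the high and low sides. Neither of the 2 type IA markers tested passed (Pcdh20 at 0.24 ± 0.34, B3gat1 at 0.12 ± 0.22), nor did Kcnd2 or Lypd6 of the type IB list. Of the 9 tested genes known to be low in type IA, 0 passed, with a median of 0.02, and of the type II list Myl1 and Gata3 were tested and neither passed. Prph, which defines type II neurons, averaged 0.70 CPM in calretinin-high cells and 1.88 CPM in calretinin-low cells.

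Transcripts of other cochlear cells were present on both sides. Haemoglobin and other red cell genes summed to 722, 437.5, 344 and 1806 CPM in calretinin-high cells, against 770, 416, 353 and 1805 CPM in calretinin-low cells, so they followed the mouse and not the side. Schwann cell and myelin genes, the list that holds Mbp, summed to 4073, 3837, 4023 and 3726 CPM in calretinin-high cells, against 4156, 3867, 4604 and 3782 CPM in calretinin-low cells, lower in 4 of 4 mice (exact permutation p = 0.13) with the widest gap in mouse 3. Of its 9 genes 7 had negative estimates and Mbp passed. Satellite glia genes summed to 1460 ± 140 CPM and 1497 ± 92.8 CPM on the high and low sides (lower in 3 of 4 mice, exact permutation p = 0.25), with 8 of 8 estimates below 0 and none called. Macrophage genes summed to 82.8 ± 33.4 CPM in calretinin-high cells and 93.7 ± 35.3 CPM in calretinin-low cells (lower in 4 of 4 mice, exact permutation p = 0.13). The part of these transcripts in the other calls was not tested. Leaving out cells of at least 3 Fabp7 UMIs, a satellite glia transcript, removed few cells (366 remained per side, against 370), so it says little on this.

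**Figure D5:**
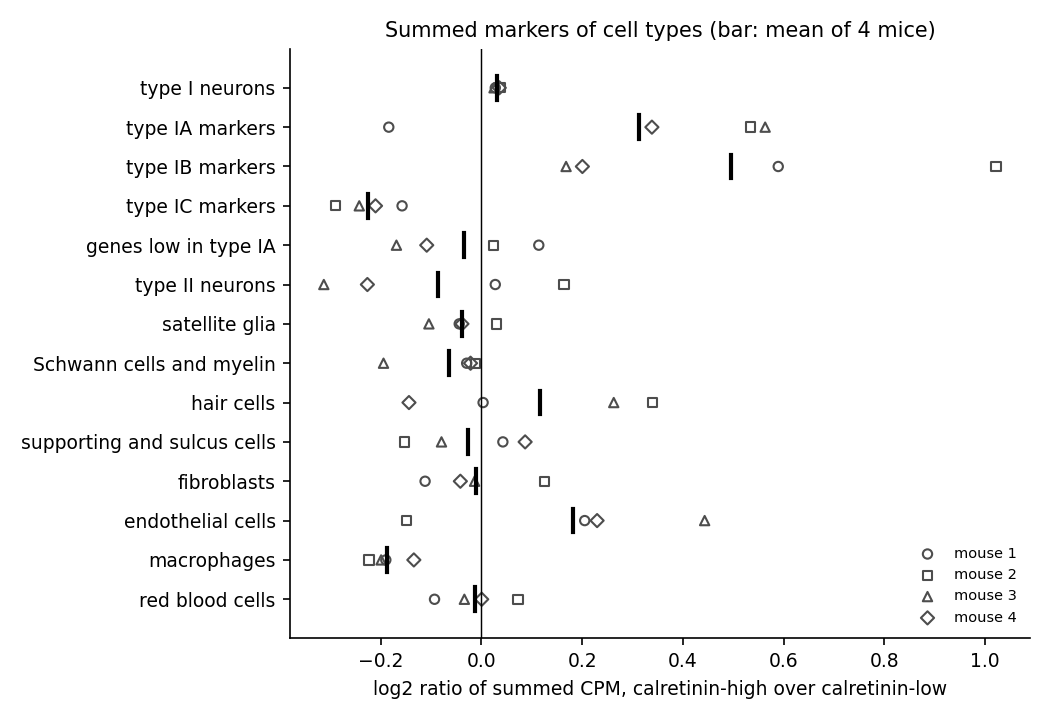
Log2 ratio of summed CPM, calretinin-high over calretinin-low, for 14 marker lists, with 1 open symbol per mouse and a bar at their mean. The type IC sum is below 0 and the type IB sum, whose mean gap is mostly Calb1, above 0 in 4 of 4 mice. The type I sum lies close to 0, and above it in 4 of 4 mice.

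Hair cell genes summed to 51.9 ± 4.91 CPM in calretinin-high cells and 48.1 ± 7.25 CPM in calretinin-low cells, and supporting and sulcus cell genes to 106 ± 8.00 CPM on the high and 108 ± 1.06 CPM on the low side. Fibroblast genes summed to 107 ± 23.7 CPM in calretinin-high cells and 107 ± 18.4 CPM in calretinin-low cells, and endothelial genes to 55.5 ± 13.1 CPM on the high and 48.5 ± 8.89 CPM on the low side. None of these lists held a called gene. The median cell held 17199 ± 3191 UMIs in calretinin-high cells and 17661 ± 3625 UMIs in calretinin-low cells (mean ± SD over mice, exact permutation p = 0.25). Mitochondrial UMIs made up 6.98% ± 0.27 and 6.87% ± 0.43 on the high and low sides (exact permutation p = 0.375). No doublet caller was run. The cells of a mouse were also ranked by depth and cut into classes of near-equal cell number, within which depth still varies. With the sides taken within these classes, 25 of the 35 genes were still called and 35 kept their sign. These sides were drawn from the same type IC cells that gave the calls.

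The choice of cells on a noisy count was measured in 2 further ways. With cells chosen on one part of the UMIs and measured on the other, 32 of the 32 called genes that could be fitted kept their sign and 7 passed: Cd24a, Rasgrp2 (1.04, adjusted p = 1.01e-07), Lgals1 (0.36, 0.000103), Col27a1 (1.18, 0.00186), Ifit1 (0.73, 0.000407), Sphkap (-0.52, 0.00161) and Pou4f1 (-0.41, 0.0406). Lypd1 was at -0.13 (0.384) there. The 35 genes were called on all UMIs of the same type IC cells, so kept signs and passes there are not independent of the calls. The type IC cells under 10000 UMIs share no cell with the members but come from the same mice and libraries. Of the 35 genes, 27 could be fitted there and 21 had the same sign. Cd24a and Lypd1 (-0.56, adjusted p = 0.00597) passed in the same direction, and Otos passed in the opposite direction (1.08, adjusted p = 0.00211). These were the 3 genes called of 4157 tested in those cells. The share of all genes with the same sign was not counted, so nothing is read from the count of signs.

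Gene by gene over single cells, the likeness to Calb2 was weak. Over the 1488 type IC cells thinned to 10000 UMIs, the mean Spearman rho with Calb2 within mice was highest for Cd24a (0.16), Lgals1 (0.11), Rasgrp2 (0.11), Col27a1 (0.11) and Cfap161 (0.10), out of 8729 genes. At the other end stood Sphkap (-0.16), Lypd1 (-0.15), Pou4f1 (-0.11), Fth1 (-0.11) and Runx1t1 (-0.10). In single mice rho ran between -0.193 and 0.0442 for Pou4f1 and between -0.239 and 0.00579 for Fth1. The others named kept their sign in each mouse, with Rasgrp2 down to 0.0258. These cells share libraries and most of these counts are sparse, so the values only describe the order, and 8 of the 10 genes were already called above.

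The library totals were 15151343 to 27309045 UMIs over 1238 to 2232 annotated cells per mouse. In all, 26 cell barcodes occurred in more than 1 library, and 6 member cells carried one of them. The tests compare sums of 4 mice. As the spread of each gene was taken from the trend over all genes, a p-value does not measure that gene's own spread between the mice.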

How the data were processed

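UMI counts per gene symbol and cell were used as the authors deposited them, 1 table per mouse. The submitters' processing notes name build mm10, Cell Ranger 2.0.1 and Seurat 1.4 without their roles. Cell filters and the basis of the labels are not given in those sources. No clustering and no doublet caller was run. Members and gene lists were chosen with earlier results of these data known.

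Cells were ranked by raw Calb2 UMIs over total UMIs, ties broken by cell name, and counts were summed per mouse and side (8 sums). Calb2 was left out of the fit. edgeR 4.0.16 in R 4.3.3 (filterByExpr, TMM, quasi-likelihood test, mouse as a block) left 9979 genes with 3 residual degrees of freedom and a biological coefficient of variation of 0.0287. Differences between subtypes were interaction terms over 24 sums, fitted jointly. Adjusted p is Benjamini-Hochberg over all genes tested, two-sided; log2 differences are edgeR estimates with SE. Directions and differences in single mice use log2 CPM with a prior count of 2. Single values were compared by an exact sign-flip permutation over 4 mice (smallest p 0.13). Levels in CPM come from 3′ counts and are compared within a gene only. Gene positions are from GENCODE on GRCm38, by symbol.

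The mouse is the pair by design, as both sides come from 1 library: deviations of the 2 sides from their group means correlated at 0.271 to 0.361 within a mouse and at most at -0.00134 between mice (4976 genes). Taking deviations from group means itself pushes the values between mice below 0, so their contrast is no test of the pairing. Named genes are those past the threshold: up to 12 per direction with at least 20 UMIs on the higher side and the same direction in 4 of 4 mice, then tested subtype markers, up to 3 called members of each function list and up to 5 per direction from each interaction. The other called genes, Rtp4, Cggbp1, Ifit1, Otos, Lypd6b, Serpinb1a and those beyond the 12, were added after their values were seen so that all 35 are accounted for. Scripts were tested on simulated data. Alternatives were DESeq2 1.42.0, no block, other scalings, filters, depths, sides and choices of cells, and each mouse left out. Those with a robust prior and limma-voom (limma 3.58.1) were added after seeing the data.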

Additional observations from a re-analysis of the deposited data

Results flagged for a closer look

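The per-mouse log2 difference of Espn in mouse 1, -0.84, stood apart from the other mice, as did that of Ebf1 in mouse 4, -0.46. The summed Schwann cell and myelin genes of mouse 3 differed by -580.6 CPM between the calretinin-high and the calretinin-low side, apart from the other mice. Of 52 groups of 4 mice tested in this way 3 were picked out, and chance picks out about 1 in 20.

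Called genes whose split differed between subtypes by the interaction test are listed with their difference on the log2 scale. Type IC minus type IB gave 1.67 for Lypd1. Type IC minus type IA gave 2.21 for Col27a1, 1.92 for Pou4f1, 1.08 for Rasgrf1, 0.92 for Lgals1, 0.81 for Lypd1, 0.71 for Cggbp1, 0.69 for Rgs10, 0.40 for Ebf1 and 0.36 for Akap12. It gave -1.12 for Dis3l and -0.45 for Otos, the gene with mice on both sides of 0.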

How the results depend on the processing

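The fit without the replicate block called 2 genes higher and 1 lower (Cd24a, Rasgrp2 and Sphkap), and DESeq2 2 and 2. Genes called higher and lower were 2 and 1 in type IC cells under 10000 UMIs, 6 and 8 with each mouse's cells divided at the median, 3 and 3 with thinned cells, 6 and 2 with cells chosen and measured on separate UMIs, and 3 and 9 without cells near another subtype. Leaving out 1 mouse gave 5 to 10 higher and 7 to 18 lower, with the fewest of both without mouse 1. Under the other alternatives the counts stayed within 1.5 times. The robust prior called 31 genes, all among the 35, and limma-voom 37, of which 31 were.

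The difference from the type IB split was 5 genes with no filter on low counts, 27 with no depth minimum and 2 within depth classes. It was 1, Lypd1, without each mouse. That from the type IA split was 363 with no replicate block, 2521 with no depth minimum, 482 with a minimum of 15000 UMIs, 629 with thinned cells, 416 on separate UMIs and 542 to 764 without 1 mouse.

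Direction changed among the 35 in the cells under 10000 UMIs: Otos was at 1.08, Rasgrf1 at 0.49, Mbp at 0.048, Srgn at 0.021, Akap12 at -0.044 and Maf at -0.14. The cause was not tested. The other 29 kept their direction in each alternative that could be fitted, and none was called in all. The cells under 10000 UMIs come from the same 4 mice and libraries, and the other alternatives reuse cells that gave the calls. Kept directions are therefore no independent support. Cd24a, Rasgrp2, Lgals1, Cryab, Lypd1, Cib2, Cd164l2, Sphkap and Rasgrf1 were called without each mouse in turn. Without 1 mouse, calretinin-high minus calretinin-low ran between -3.33 and 13.7 for median genes per thinned cell, -38.2 and 5.44 CPM for genes low in type IA, -4.51 and 1.39 CPM for supporting cells, -3.72 and 2.31 CPM for fibroblasts, and -18.6 and 4.6 CPM for red blood cells.

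The sums hold 90 Calb1 UMIs and 33 Pcdh19 UMIs on the calretinin-high side, so depth limits statements on such genes.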
